A study of Mus musculus with 6 samples.

Results

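A set of 50 genes of the actin cytoskeleton was chosen by symbol from the 23935 genes of the deposited tables: the 2 cytoplasmic actins Actb and Actg1, the thymosins Tmsb4x and Tmsb10 and other monomer binders, the Arp2/3 complex and its activators, capping, severing, bundling and membrane-linking proteins, non-muscle myosin, tropomyosins, adhesion adaptors, and the transcription factor Srf. All 50 were in the tables, and all 50 passed the filter on low counts that left 16516 genes to be tested. RNA-seq was performed on bone marrow-derived macrophages (BMDMs) of 3 PKM2FL/FL and 3 PKM2ΔMAC mice, and each library came from a separately numbered mouse. PKM2FL/FL mice carry floxed alleles of the pyruvate kinase Pkm and no Cre, and PKM2ΔMAC mice carry the same floxed alleles with LysM-Cre. Marrow of femur and tibia was cultured with M-CSF for 7 days, and all BMDMs, controls included, were then primed for 16 h with LPS at 10 ng/mL together with IFN-γ at 25 ng/mL. There was no unprimed group, so the values compare genotypes within primed macrophages only. The age and sex of the sequenced mice are not given in the sources used here; for BMDMs primed the same way for flow cytometry, the study's methods name male mice of both genotypes. LysM-Cre is driven from the Lyz2 locus, so recombination is limited to cells that express Lyz2 and also takes place in neutrophils. The study asked how the loss of macrophage PKM2 affects pro-inflammatory activation.

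Actin exists as monomers and as filaments, and macrophages turn filaments over rapidly to crawl, to ruffle and to engulf particles. Thymosin β4 and thymosin β10, the products of Tmsb4x and Tmsb10, hold monomers in a reserve. Profilin hands monomers to growing ends, the Arp2/3 complex starts branches, capping proteins stop growth, and cofilin and gelsolin sever old filaments. Myosin, plastin, filamin and α-actinin pull on or tie filaments together, and talin and vinculin join them to integrins. SRF switches on many actin genes through a promoter element named the CArG box when the pool of free monomers shrinks.

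Libraries held 49957449 to 54524651 counts. Summed over the gene, Pkm was at 1698 to 1715 CPM (counts scaled to the size of the library) in PKM2FL/FL and at 987 to 1212 CPM in PKM2ΔMAC libraries, with the highest of the PKM2ΔMAC values in replicate 2. Lyz2 was at 44825 to 49590 TPM (counts scaled by gene length and library) in PKM2FL/FL and at 70.4 to 87.6 TPM in PKM2ΔMAC BMDMs, so the groups differed in Lyz2 as well as in Pkm, and effects of the Cre allele and of PKM2 loss cannot be told apart. TPM of the tested genes ran higher in PKM2ΔMAC libraries by a median of 0.072 on the log2 scale. Tests were therefore made on CPM scaled by TMM, and TPM is used to set genes beside each other. All 7 macrophage markers were detected and none was called, with a summed level of 6941 to 7203 CPM in PKM2FL/FL and 6883 to 7795 CPM in PKM2ΔMAC libraries. Adgre1 was the only marker of the 7 above the control range, with a log2 fold change of 0.26 (edgeR adjusted p = 0.236). Markers of other cells were present too. The 8 neutrophil markers summed to 20.3 to 48.8 CPM in PKM2FL/FL and 90.1 to 169.97 CPM in PKM2ΔMAC libraries, with 5 of 8 above the control range, and the 8 cell cycle genes to 259 to 282 CPM and 319 to 537 CPM, with 7 of 8 above it. Of all tested genes, 8.92% were above the control range in every PKM2ΔMAC library. Fibroblast markers summed to 4932 to 5511 CPM and 4910 to 6229 CPM, and smooth muscle markers to 981 to 1055 CPM and 730 to 1307 CPM. PKM2ΔMAC replicate 2 stood apart from the other PKM2ΔMAC libraries in several of these lists: it had the highest cell cycle, smooth muscle and macrophage sums and the lowest neutrophil and fibroblast sums. No marker gene in any list was called, none was at 0 in all libraries, and their part in the results was not tested. In bulk RNA, fewer cells of a type and less RNA per cell cannot be told apart.

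Tmsb4x was called in the genotype comparison and Tmsb10 was not, so the coding sequences of both thymosins (GENCODE M21, GRCm38) are shown with their differences. For each gene the shortest complete annotated coding sequence was taken. Both are 135 bases long, that is 44 codons and a stop. Aligned without gaps they shared 95 bases and differed at 40 (70.4% identity). Capitals mark the bases that differ:
Tmsb4x: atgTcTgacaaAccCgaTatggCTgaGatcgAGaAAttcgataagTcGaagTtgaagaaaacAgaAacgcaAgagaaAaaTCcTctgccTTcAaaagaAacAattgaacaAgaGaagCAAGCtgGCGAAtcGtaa
Tmsb10: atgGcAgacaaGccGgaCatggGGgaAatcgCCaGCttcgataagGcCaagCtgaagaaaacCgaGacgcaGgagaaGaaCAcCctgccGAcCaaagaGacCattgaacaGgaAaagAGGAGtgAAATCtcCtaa
The longest stretch without a difference was 10 bases, so reads from the coding part of either gene can be told from the other. No other gene of the tables resembled Tmsb4x at 90% identity or more over at least 200 bases. Tmsb10 had a near copy, Gm9844, whose counts came to 4.27% of those of Tmsb10.

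Of the 50 genes, Tmsb4x and Actb were higher in PKM2ΔMAC BMDMs at an adjusted p under 0.05 (edgeR's quasi-likelihood test), and none was lower. Over all tested genes, 0.285% were called higher and 0.127% lower. At an unadjusted p under 0.05, 14 of the 50 were higher and 1, Vcl, was lower, against 5.24% and 4.6% of all tested genes. In 21 of the 50 every PKM2ΔMAC library exceeded every PKM2FL/FL library in CPM, and in 2, Vcl and Ezr, every PKM2ΔMAC library was below, against 8.92% and 8.32% of all tested genes; the other 27 overlapped. In TPM, which ran higher in PKM2ΔMAC libraries, 30 of the 50 were higher and 0 lower without overlap, against 19% and 3.15% of all tested genes. The differences were small: 46 of the 50 lay within 0.2 of 0 on the log2 scale, and the median log2 fold change was 0.065, against 0.00 over all tested genes. These genes are abundant, and their median standard error (SE) was 0.047 against 0.11 over all tested genes. The part of abundance and SE in these counts was not tested. The 47 genes other than Actb, Actg1 and Tmsb4x made up 1.77%, 1.77% and 1.74% of TPM in the PKM2FL/FL and 1.91%, 2.10% and 1.90% in the PKM2ΔMAC libraries. By library, the median of the 50 log2 ratios to the PKM2FL/FL mean was 0.044, 0.12 and 0.037 in PKM2ΔMAC replicates 1, 2 and 3. The shift was thus most pronounced in replicate 2, and without that library the median over the 50 genes was 0.042. Among PKM2ΔMAC libraries, replicate 2 also had the highest Pkm level and the highest cell cycle, smooth muscle and macrophage sums. Their part in the shift was not tested.

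**Figure D1:**
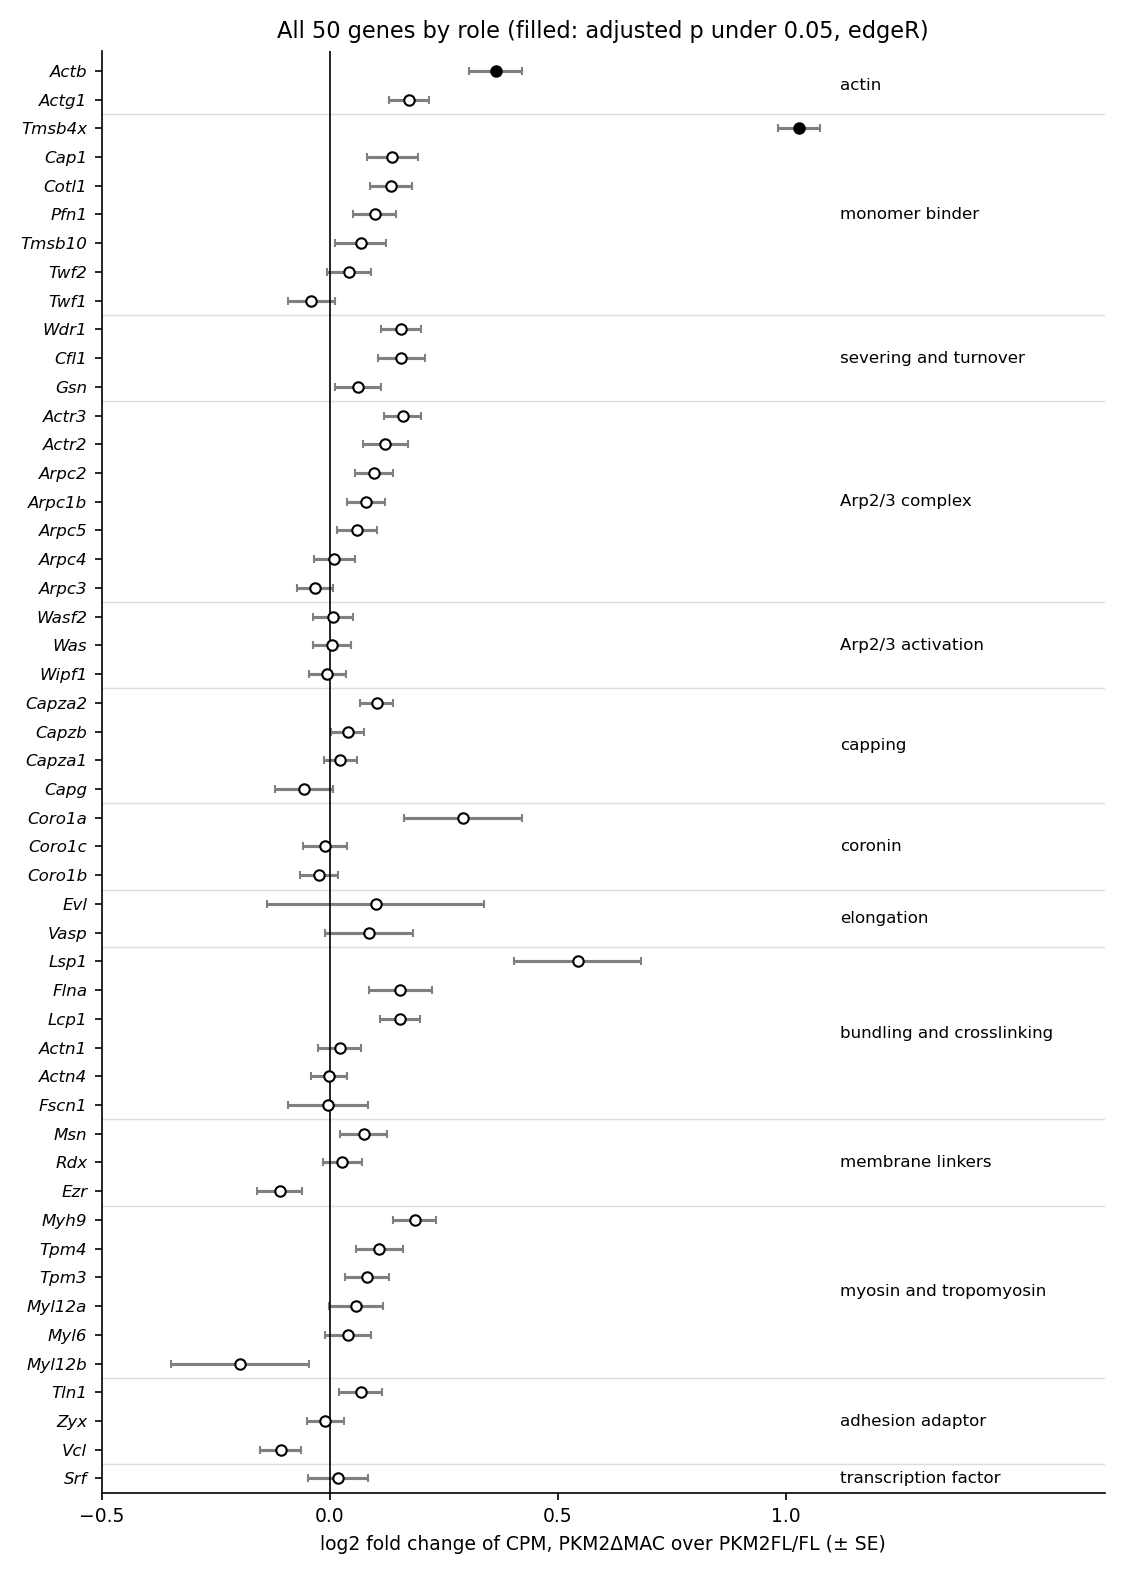
Log2 fold change of CPM in PKM2ΔMAC over PKM2FL/FL BMDMs (x axis) for each of the 50 genes (y axis), grouped by role, with the SE of the edgeR fit as whiskers (3 libraries per group). Tmsb4x at 1.03 and Actb at 0.36 are filled because their adjusted p was under 0.05, and most other genes lie near 0.

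Among the actins, Actb, which encodes β-actin, is on chromosome 5 (GRCm38, 142903115 to 142906754, minus strand). Its level was 5022, 5163 and 4682 TPM in the PKM2FL/FL libraries and 6459, 7337 and 6345 TPM in the PKM2ΔMAC libraries. The groups did not overlap, and the lowest PKM2ΔMAC library was above the highest control. In TMM-scaled CPM the means were 3792 ± 168 and 4880 ± 236 (SD, n = 3 each), a 1.29-fold increase with a log2 fold change of 0.36 (SE 0.058 and adjusted p = 0.0469). That call lay close to the threshold: over the alternatives the log2 fold change stayed between 0.32 and 0.44, while the adjusted p ranged up to 0.377. It was lost on leaving out any single library other than PKM2ΔMAC replicate 2, with adjusted p from 0.055 to 0.321. The study normalised its qPCR to Actb mRNA and probed β-actin on its blots.

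Actg1, which encodes γ-actin (chromosome 11, 120345690 to 120348542, minus strand), was at 1411, 1409 and 1349 TPM in PKM2FL/FL and at 1622, 1659 and 1661 TPM in PKM2ΔMAC BMDMs. Again the groups did not overlap, in TPM or in CPM. The log2 fold change was 0.17 (SE 0.045, unadjusted p = 0.00404, adjusted p = 0.232), which did not pass the threshold in edgeR. It passed in DESeq2 (adjusted p = 0.0427) and in edgeR without PKM2ΔMAC replicate 2 (adjusted p = 0.0279). Near-identical pseudogenes exist for Actg1, of which Gm12715 and Gm8399 held counts equal to 1.03% and 0.34% of those of Actg1, and Actb resembles Actg1 at 91.1% identity over 337 bases and Lrrc58 at 90.6% over 1347 bases. How reads shared between such genes were assigned is not given in the sources used here. Within a library, Actb exceeded Actg1 by a ratio of 3.57 ± 0.098 in PKM2FL/FL and 4.07 ± 0.31 in PKM2ΔMAC BMDMs (TPM, SD, n = 3), without overlap, and the exact two-sided permutation test gave p = 0.1, the smallest that 3 against 3 libraries allow.

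Tmsb4x, on chromosome X (167207093 to 167209315, minus strand), was the most abundant of the 50 genes. Its level was 5647, 5759 and 5739 TPM in the PKM2FL/FL libraries and 11735, 12991 and 12092 TPM in the PKM2ΔMAC libraries, and no library of either group came near the other group. CPM rose from 2238 ± 16.6 to 4568 ± 120.4, which is 2.04-fold with a log2 fold change of 1.03 (SE 0.047 and adjusted p = 1.9e-05). The log2 fold change stayed between 1.01 and 1.10 over all alternatives. Tmsb10, the related gene on chromosome 6 (72957347 to 72958748, minus strand), was at 512, 475 and 522 TPM in PKM2FL/FL and at 545, 548 and 569 TPM in PKM2ΔMAC libraries. These TPM values did not overlap, but in CPM, which ran from 171 to 191 in PKM2FL/FL and from 183 to 202 in PKM2ΔMAC libraries, they did, and the log2 fold change was 0.068 (SE 0.056 and adjusted p = 0.762). The thymosin that dominates in these cells therefore doubled in mRNA, while no difference was called for its relative.

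**Figure D2:**
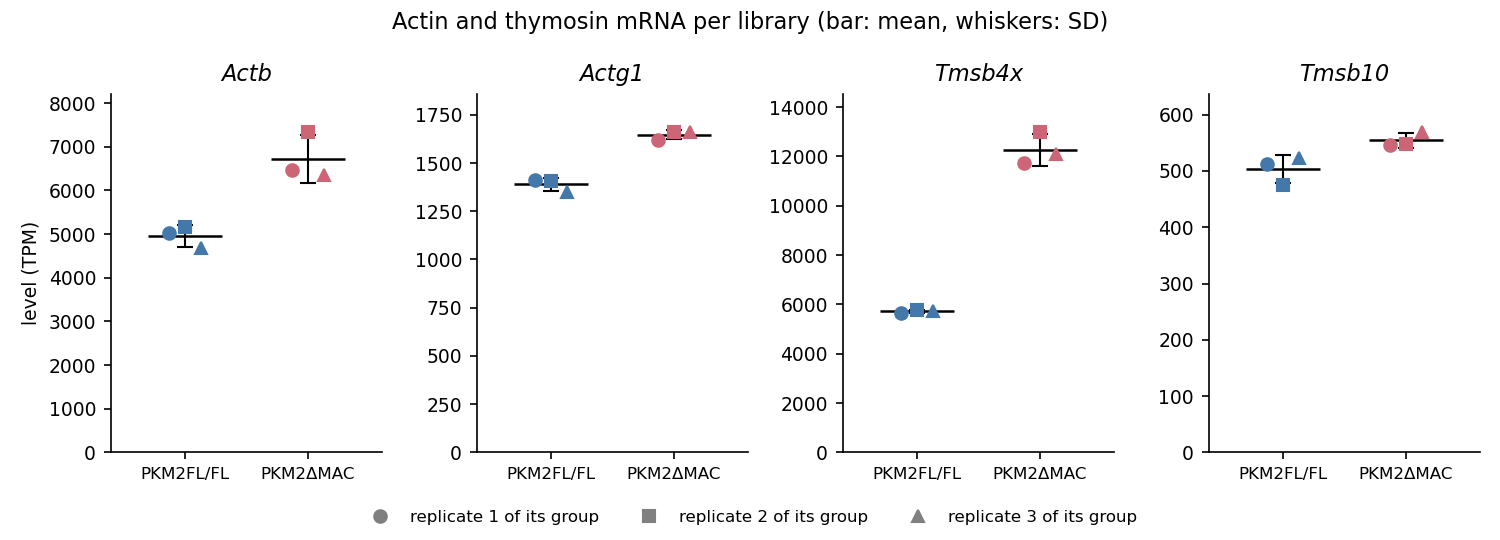
Level in TPM (y axis, from 0, a separate scale for each gene) of Actb, Actg1, Tmsb4x and Tmsb10 in each library of PKM2FL/FL and PKM2ΔMAC BMDMs, with the mean and SD of 3 libraries. Tmsb4x runs from 5647 to 5759 TPM in controls and from 11735 to 12991 TPM in PKM2ΔMAC BMDMs, the widest separation of the 4 genes.

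The balance between thymosin and actin mRNA was then compared within each library. The ratio of Tmsb4x to Tmsb10 was 11.03, 12.13 and 10.98 in PKM2FL/FL and 21.5, 23.7 and 21.2 in PKM2ΔMAC libraries. The ratio of Tmsb4x to the sum of Actb and Actg1, added after the data were seen, was 0.88, 0.88 and 0.95 in PKM2FL/FL and 1.45, 1.44 and 1.51 in PKM2ΔMAC libraries, so that Tmsb4x passed from below to above the sum of both actins. The ratio of Tmsb10 to the same sum, also added, went from 0.079 ± 0.0072 to 0.067 ± 0.0051 (SD, n = 3), without overlap. For each of these ratios the exact two-sided permutation test gave p = 0.1, its smallest possible value here. They are ratios of mRNA and say nothing of protein or of filament content.

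**Figure D3:**
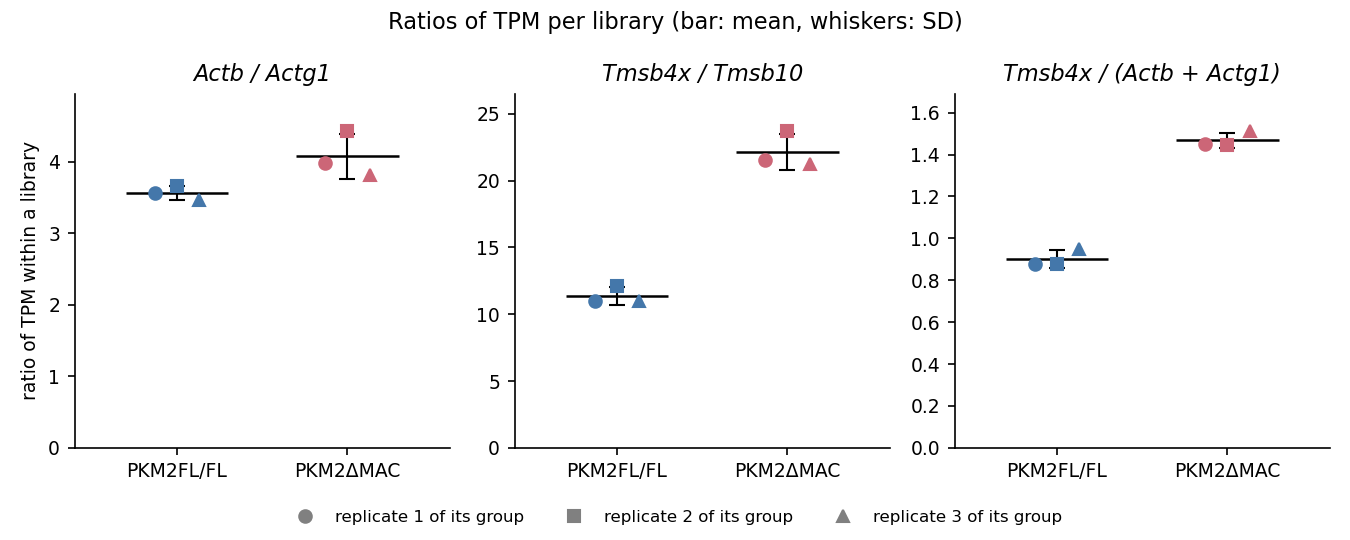
Ratio of TPM within each library (y axis, from 0) for Actb to Actg1, Tmsb4x to Tmsb10 and Tmsb4x to the sum of Actb and Actg1, in PKM2FL/FL and PKM2ΔMAC BMDMs, with the mean and SD of 3 libraries. The groups do not overlap in any of the 3 ratios, and Tmsb4x to Tmsb10 goes from a mean of 11.4 to 22.1.

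The neighbourhoods of both genes were examined, taking the 3 tested genes on either side. The genes that follow Tmsb4x towards the end of chromosome X were higher by a similar amount: Tlr8 by 0.98 (SE 0.056 and adjusted p = 0.000102), Tlr7 by 0.88 (SE 0.090 and adjusted p = 0.00953) and Prps2 by 1.00 (SE 0.060 and adjusted p = 0.000135) on the log2 scale. Tlr7 and Tlr8 encode endosomal sensors of RNA, and Prps2 an enzyme of nucleotide synthesis, none of them a gene of the cytoskeleton. The 3 genes before Tmsb4x were a pseudogene and non-coding RNAs under 1 CPM, with log2 fold changes of 0.00, 1.51 and 0.17 and overlapping groups. By contrast, none of the 6 genes around Actb was called, with log2 fold changes from -0.10 to 0.29, and Fscn1, the next gene after it and itself one of the 50, had 0.00. The other X-linked genes among the 50, Flna, Msn and Was, were not called either. The part of this stretch of the chromosome in the result for Tmsb4x was not tested.

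**Figure D4:**
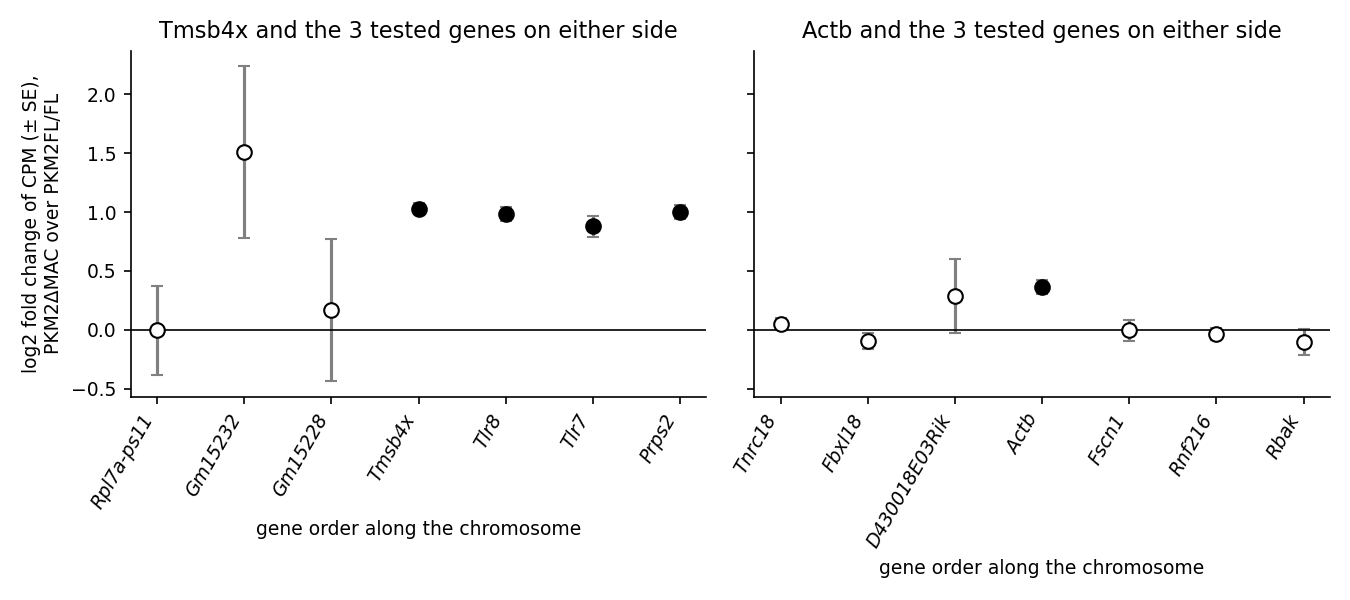
Log2 fold change of CPM with its SE (y axis) for Tmsb4x and Actb and the 3 tested genes on either side, in their order along chromosome X and chromosome 5 (x axis, not to scale); filled points have an adjusted p under 0.05. Tmsb4x and the 3 genes after it lie between 0.88 and 1.03, whereas Actb is the only filled point of its 7.

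The remaining genes grouped as monomer binders, in which Cotl1 was placed although it binds filaments, moved little. Cap1, the cyclase-associated protein that recharges monomers, was at 965, 968 and 922 CPM in PKM2FL/FL and at 1041, 1120 and 979 CPM in PKM2ΔMAC libraries. Cotl1, a filament-binding member of the cofilin-like fold family and by TPM the fourth most abundant of the 50, was at 514, 490 and 494 CPM against 552, 521 and 570 CPM. Neither overlapped between groups, and log2 fold changes were 0.14 (SE 0.056 and adjusted p = 0.474; 0.087 without PKM2ΔMAC replicate 2) and 0.13 (SE 0.047 and adjusted p = 0.400). Pfn1, encoding profilin, was also without overlap, at 604 to 612 CPM against 629 to 691 CPM, with a log2 fold change of 0.099 (adjusted p = 0.542). The twinfilins Twf1 and Twf2, which bind monomers and filament ends, overlapped, with -0.040 and 0.042, and each changed sign under an alternative.

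Of the severing and turnover genes, Cfl1, which encodes the main cofilin of non-muscle cells, was at 682, 678 and 651 CPM in PKM2FL/FL and at 716, 796 and 730 CPM in PKM2ΔMAC libraries. Its partner Wdr1, which speeds cofilin-driven disassembly, was at 511, 489 and 486 CPM against 542, 573 and 542 CPM. Both had a log2 fold change of 0.16 without overlap, with adjusted p of 0.370 for Cfl1 and 0.267 for Wdr1. Gsn, encoding gelsolin, overlapped at 0.062.

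Across the 7 genes of the Arp2/3 complex among the 50, log2 fold changes ran from -0.032 for Arpc3 to 0.16 for Actr3, and none was called. Actr3, an actin-related subunit that forms the base of the new branch, was at 764, 735 and 737 CPM in PKM2FL/FL and at 841, 817 and 842 CPM in PKM2ΔMAC libraries (SE 0.041, unadjusted p = 0.00376, adjusted p = 0.225), and passed in DESeq2 with an adjusted p of 0.0366 and in edgeR without PKM2ΔMAC replicate 2 with 0.0367. Its partner Actr2 was at 599, 595 and 602 CPM against 631, 695 and 628 CPM, with a log2 fold change of 0.12. Arpc2, the most abundant subunit by TPM, was at 564, 569 and 546 CPM against 588, 617 and 593 CPM, with 0.097. These 3 and Arpc1b did not overlap between groups, whereas Arpc3, Arpc4 and Arpc5 did. Of the 3 further subunit genes tested in a wider list, Arpc1a and Arpc5l had log2 fold changes of -0.030 and 0.00054, and Actr3b, at a mean of 0.56 CPM against 0.95 CPM, had 0.75, without overlap and not called. The 3 activators among the 50 overlapped: Wasf2, a WAVE protein that turns on the complex at ruffles, was at 266, 281 and 268 CPM against 269, 285 and 265 CPM, and Was and its partner Wipf1 had log2 fold changes of 0.0042 and -0.0051.

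Among capping genes, Capza2, a subunit of the heterodimer that blocks fast-growing ends, was at 327, 315 and 324 CPM in PKM2FL/FL and at 343, 345 and 350 CPM in PKM2ΔMAC libraries, a log2 fold change of 0.10 (SE 0.037 and adjusted p = 0.412). Its partner Capzb had 0.039, also without overlap, and the alternative α subunit Capza1 had 0.024, with overlap. Capg, a macrophage-rich capping protein of the gelsolin family, was at 686, 591 and 665 CPM against 642, 587 and 638 CPM, with a log2 fold change of -0.057 that became 0.018 on the TPM scale. No direction can be given for it.

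Lsp1 and Coro1a, both characteristic of leukocytes, had the largest log2 fold changes among the genes that were not called, and both were highest in PKM2ΔMAC replicate 2. Lsp1, a leukocyte protein that binds filaments, was at 54.6, 46.8 and 50.5 CPM in PKM2FL/FL and at 67.8, 89.6 and 63.9 CPM in PKM2ΔMAC libraries. It did not overlap between groups and had a log2 fold change of 0.54 (SE 0.14, unadjusted p = 0.00798, adjusted p = 0.304). DESeq2 called it (adjusted p = 0.00285), and so did edgeR without PKM2ΔMAC replicate 2, at a smaller log2 fold change of 0.38 (adjusted p = 0.0123). Coro1a, the leukocyte coronin, which sits on phagosomes and on branched filaments, was at 279, 301 and 292 CPM against 327, 432 and 309 CPM, again without overlap (log2 fold change 0.29, SE 0.13 and adjusted p = 0.535). Without PKM2ΔMAC replicate 2 the log2 fold change of Coro1a was 0.13 (adjusted p = 0.202). Neutrophils express both genes, and the neutrophil marker sum was 122, 90.1 and 169.97 CPM in PKM2ΔMAC replicates 1, 2 and 3. By marker, Mmp8, singled out after its values were seen, was highest in replicate 2 (26.4 CPM against 9.67 and 10.3 CPM) and the other 7 were lowest there. The cell cycle sum followed the order of both genes, at 347, 537 and 319 CPM in the same replicates. So did the macrophage sum (7109, 7795 and 6883 CPM), the smooth muscle sum (897, 1307 and 730 CPM) and the lower B cell and mast cell sums. Sums of the other lists did not follow that order. The part of any of these lists in the results was not tested. The more widely expressed coronins Coro1b and Coro1c overlapped, at -0.023 and -0.010.

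Of the other bundling and crosslinking genes, Lcp1, which encodes L-plastin, the leukocyte bundling protein, was at 1674, 1675 and 1638 CPM in PKM2FL/FL and at 1797, 1899 and 1851 CPM in PKM2ΔMAC libraries. Its log2 fold change was 0.15 (SE 0.044, unadjusted p = 0.00757, adjusted p = 0.298), with an adjusted p of 0.0483 in DESeq2. Flna, encoding the crosslinker filamin A, was at 2270, 2228 and 2124 CPM against 2348, 2718 and 2304 CPM, with 0.15 (SE 0.069 and adjusted p = 0.516). Both were without overlap, and without PKM2ΔMAC replicate 2 the log2 fold change of Flna was 0.077. The α-actinins Actn1 and Actn4 and the fascin gene Fscn1 overlapped, at 0.022, -0.0011 and -0.0038. Evl and Vasp, which promote elongation at filament tips, overlapped as well. Evl was the most variable of the 50, at 220, 170 and 193 CPM against 226, 144 and 254 CPM, and its log2 fold change of 0.10 had an SE of 0.24.

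In the contractile group, Myh9, the heavy chain of non-muscle myosin IIA, was at 1566, 1508 and 1461 CPM in PKM2FL/FL and at 1716, 1761 and 1681 CPM in PKM2ΔMAC libraries. The groups were separate, and the log2 fold change was 0.19 (SE 0.047, unadjusted p = 0.00357, adjusted p = 0.225; DESeq2 adjusted p = 0.0204). Tpm4, a tropomyosin, which coats filaments, was at 510, 526 and 513 CPM against 537, 597 and 536 CPM, with 0.11 (adjusted p = 0.539), and Tpm3 had 0.082, both without overlap. The light chains Myl6, Myl12a and Myl12b overlapped, at 0.040, 0.059 and -0.20. Myl12a and Myl12b are 96.9% identical over 648 aligned bases, so their counts are uncertain against each other, as are those of Tpm3, whose near copy Tpm3-rs7 held 10.3% of its count.

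Membrane linkers and adhesion adaptors held both genes whose PKM2ΔMAC libraries were below every control. Vcl, encoding vinculin, was at 246, 248 and 238 CPM in PKM2FL/FL and at 227, 236 and 216 CPM in PKM2ΔMAC libraries, a log2 fold change of -0.11 (SE 0.044, unadjusted p = 0.0393, adjusted p = 0.474). It shares 2094 bases of exon sequence with Ap3m1, and in TPM the groups overlapped. Ezr, encoding ezrin and given by library because it was the other gene below every control, was at 42.3, 40.0 and 43.6 CPM against 39.9, 38.4 and 38.4 CPM, with -0.11 (adjusted p = 0.516). In TPM Ezr overlapped as well, and the fits of TPM gave -0.036 for both genes. Msn, encoding moesin, the dominant member of the same family by TPM, was at 1096, 1023 and 1032 CPM against 1095, 1160 and 1062 CPM, with 0.075, and Rdx had 0.028. Tln1, encoding talin, the integrin activator, was at 1478, 1396 and 1413 CPM against 1489, 1548 and 1458 CPM, with 0.068, and Zyx had -0.0093. In CPM all but Vcl and Ezr overlapped, whereas in TPM Msn, Rdx and Tln1 were higher without overlap.

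Srf itself was at 70.4, 71.9 and 67.1 CPM in PKM2FL/FL and at 72.0, 76.1 and 63.9 CPM in PKM2ΔMAC libraries, with a log2 fold change of 0.018 (SE 0.065 and adjusted p = 0.957). Because its known targets carry CArG boxes, the RefSeq promoter windows of GRCm38.p6, 250 bases before to 50 after each gene's start, were searched for that box, a motif of 10 letters that reads the same on both strands. Actb, Cotl1, Twf2, Coro1b and Lsp1 had no window in the table. Of the 45 genes with a window, 5 held a box (11.1%), against 1.81% of the 27025 genes in the same table. These were Actg1, Arpc4, Myl6, Vcl and Srf, whose log2 fold changes ran from -0.11 to 0.17 with a median of 0.018, against 0.068 for the 40 genes whose window held none; the called Actb is in neither set. The windows of the highest and the lowest of the 5, and that of Tmsb4x, which held none, are given with the box in capitals:
Actg1, chr11:120348446-120348745, minus strand: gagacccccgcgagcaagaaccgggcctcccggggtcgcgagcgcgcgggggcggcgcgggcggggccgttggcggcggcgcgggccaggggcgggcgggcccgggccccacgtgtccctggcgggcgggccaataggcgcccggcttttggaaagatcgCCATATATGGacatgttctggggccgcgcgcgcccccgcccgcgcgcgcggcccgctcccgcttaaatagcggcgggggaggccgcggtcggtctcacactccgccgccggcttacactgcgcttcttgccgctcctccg
Vcl, chr14:20929148-20929447, plus strand: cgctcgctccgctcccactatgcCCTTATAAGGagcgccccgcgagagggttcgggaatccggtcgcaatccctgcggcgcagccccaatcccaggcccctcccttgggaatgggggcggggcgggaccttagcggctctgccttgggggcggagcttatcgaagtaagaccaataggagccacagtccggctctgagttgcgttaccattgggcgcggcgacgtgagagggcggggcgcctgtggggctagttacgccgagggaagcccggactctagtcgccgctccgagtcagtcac
Tmsb4x, chrX:167209169-167209468, minus strand: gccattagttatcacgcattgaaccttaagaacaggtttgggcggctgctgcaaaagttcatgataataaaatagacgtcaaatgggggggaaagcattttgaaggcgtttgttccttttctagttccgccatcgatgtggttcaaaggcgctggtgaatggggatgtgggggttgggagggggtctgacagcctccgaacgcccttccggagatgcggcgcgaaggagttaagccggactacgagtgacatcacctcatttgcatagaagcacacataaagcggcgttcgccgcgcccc
The box lay 90 bases before the start in Actg1 and 227 bases before it in Vcl. A match is a run of letters and not a measured binding site. Of the 5 genes with a box only Vcl lay below 0, and Arpc4, Myl6 and Srf changed sign in at least 1 setting. The part of SRF in these results was not tested.

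Beyond these genes, a wider list of 137 genes of actin regulation was examined, of which 130 were in the tables and 124 were tested. Of the 124, 1 was called higher and 1 lower, against 0.285% and 0.127% of all tested genes. The gene called higher is not reported here, so only the lower call is described below. At an unadjusted p under 0.05, 12 were higher and 3 lower, against 5.24% and 4.6%, and 19 were higher and 8 lower without overlap in CPM, against 8.92% and 8.32%. Their median log2 fold change was 0.0041. Pstpip1, an adaptor that binds WASP and is found at podosomes, was at 78.6, 78.3 and 82.0 CPM against 34.1, 34.8 and 41.8 CPM, which is 0.46-fold (log2 fold change -1.11, SE 0.076 and adjusted p = 0.000516). It lay lower by more than any of the 50 genes. Wasf1, a WAVE protein best known from neurons, was low throughout, at 1.91, 1.87 and 1.61 CPM against 2.34, 3.59 and 2.42 CPM, and was not called (adjusted p = 0.388).

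The calls for Actb and Tmsb4x were followed through every alternative of normalisation, filter, test and left-out library. Tmsb4x was called in all of them but a fit of unfiltered TPM (adjusted p = 0.101). In that fit none of the 50 was called, and 22 were higher at an unadjusted p under 0.05 (limma-trend), against 8.6% of all genes. Actb kept its direction in all of them, and its call was lost in 10 of the 17 settings.

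**Figure D5:**
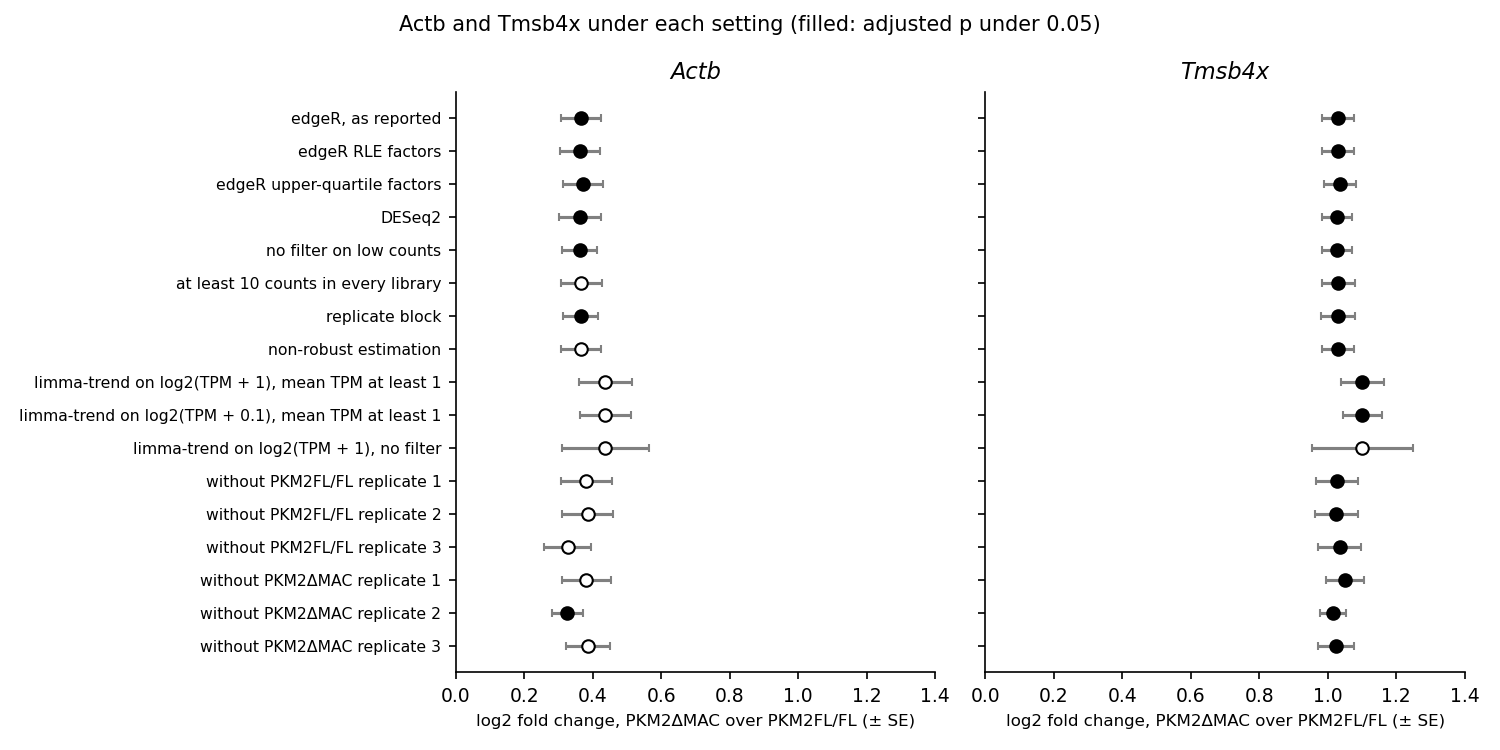
Log2 fold change and SE (x axis) of Actb and Tmsb4x in PKM2ΔMAC over PKM2FL/FL BMDMs under each setting (y axis); filled points have an adjusted p under 0.05. Actb stays between 0.32 and 0.44 but is filled in 7 of 17 settings, and Tmsb4x, between 1.01 and 1.10, is filled in 16 of 17.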

How the data were processed

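The authors deposited gene-level counts and TPM for 6 libraries made from total RNA with a SMARTER kit; every value column matched a sample (0 unmatched). The submitters' processing notes list FastQC 0.12.1, Trim Galore 0.6.10, HISAT2 2.2.1, SAMtools 1.19.2, Subread 2.0.6 and mm10 (GRCm38), without roles. The annotation, strand setting and treatment of multi-mapping reads are not given in the sources used here, so overlapping, antisense and near-copy genes can share reads. Deposited TPM values were normalised by the authors for gene length and depth and were used for levels and ratios.

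The deposited counts were tested with edgeR 4.0.16 (R 4.3.3): TMM factors, filterByExpr, robust quasi-likelihood fit with genotype as the only term, and Benjamini-Hochberg adjustment over 16516 genes; a call is an adjusted p under 0.05. Positive log2 fold changes are higher in PKM2ΔMAC, and the SE is the log2 fold change divided by the root of F. Alternatives were other scaling factors, DESeq2 1.42.0, other filters, non-robust estimation, a replicate block, limma 3.58.1 on TPM, and leaving out each library. Ratios were compared by exact permutation.

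Positions and coding sequences came from GENCODE M21, promoters from RefSeq, and near copies from BLAST 2.17.0. Given by library were the genes with an adjusted or unadjusted p under 0.05, Actb, Actg1, Tmsb4x, Tmsb10 and the most abundant gene of each role (Ezr was added after its values were seen), and, of the wider list, called genes and the 3 largest fold changes at 1 CPM or more; 1 called gene of the wider list is not reported here. The genes and all lists were chosen with earlier results of these data known. Depth was 49957449 to 54524651 counts per library, and p-values rest on the spread between 3 mice per group.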

Additional observations from a re-analysis of the deposited data

How the results depend on the processing

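Over all tested genes, 68 were called. DESeq2 called 289, edgeR without a filter 120, limma-trend 41 on log2(TPM + 1), 34 on log2(TPM + 0.1) and 36 on unfiltered log2(TPM + 1), and leaving out 1 library gave 22 to 299, the highest without PKM2ΔMAC replicate 2. Of the 50 genes, 2 were called higher. DESeq2 called 7 (Actb, Actg1, Tmsb4x, Actr3, Lcp1, Lsp1 and Myh9), a filter of at least 10 counts, non-robust estimation and both filtered TPM fits called 1 (Tmsb4x), unfiltered TPM 0, where 22 were higher at an unadjusted p under 0.05 (8.6% of all genes in that fit), and leaving out 1 library gave 1 to 5. None of these settings called any of the 50 lower. The median log2 fold change of 0.065 was 0.136, 0.136 and 0.136 in the TPM fits, where the median over all genes was 0.063, 0.067 and 0.046, and 0.042 to 0.082 with 1 library left out. Of the wider list, 2 genes were called, against 1 without a filter, with at least 10 counts or with unfiltered TPM, and 1 to 7 with 1 library left out (7 without PKM2ΔMAC replicate 2). Actb lost its call with at least 10 counts (0.37, adjusted p = 0.0645), with non-robust estimation (0.36, adjusted p = 0.0689) and in the TPM fits (0.44 in each, adjusted p = 0.14, 0.131 and 0.377), and its log2 fold change ran from 0.32 to 0.39 with 1 library left out. Tmsb4x lost its call with unfiltered TPM (1.10, adjusted p = 0.101). The causes were not tested.

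Of the 50 genes, 20 changed sign in at least 1 setting, all of them uncalled in every setting and 0.10 or less from 0 as rounded. Among those given by library, they were Wasf2 (-0.0084 without PKM2FL/FL replicate 1, -0.0032 without PKM2FL/FL replicate 3 and -0.025 without PKM2ΔMAC replicate 2, at most 0.030 with 1 library left out and 0.078 in the TPM fits), Capg on the 3 TPM scales (0.018 each), Evl (-0.069 without PKM2ΔMAC replicate 3, up to 0.31 without replicate 2) and Srf (-0.010 without PKM2FL/FL replicate 3 and -0.037 without PKM2ΔMAC replicate 2, at most 0.085 with 1 library left out and 0.087 in the TPM fits). The others were Twf1, Twf2, Arpc3, Arpc4, Was, Wipf1, Coro1b, Coro1c, Vasp, Fscn1, Actn1, Actn4, Rdx, Myl6, Myl12a and Zyx. No direction can be given for any of the 20.

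Of genes at least 0.05 from 0 on the log2 scale, none of them called, leaving out PKM2ΔMAC replicate 2 moved the value by over 1.5 times for Cap1 (to 0.087), Coro1a (0.13), Flna (0.077), Pfn1 (0.056), Actr2 (0.074), Tpm3 (0.039), Tpm4 (0.057), Gsn (0.013), Msn (0.040), Capg (-0.015), Tmsb10 (0.10), Vasp (-0.027), Evl (0.31), Myl12a (-0.012) and Myl12b (-0.33). Other libraries did so for Evl, Vasp, Capg, Tmsb10, Arpc5, Myl12a and Myl12b.

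With a replicate block, 82 genes were called, 2 of the 50 among them, with 0.36 for Actb and 1.03 for Tmsb4x. Deviations of same-numbered libraries from their group means had correlations of 0.069, 0.12 and 0.011. Every library except PKM2ΔMAC replicate 3, which was closest to PKM2FL/FL replicate 1, correlated best with the other group's library of its own number. What a shared number marks is not given in the sources used here, and whether the libraries are paired was not tested.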

Other observations

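The smooth-muscle actins were outside the 50 genes but abundant. Acta2 was at 1427 to 1562 TPM in PKM2FL/FL and at 1399, 2095 and 1143 TPM in PKM2ΔMAC replicates 1, 2 and 3, close to the level of Actg1, and Actg2 was at 286 to 343 TPM and at 252, 429 and 185 TPM. Both were highest in PKM2ΔMAC replicate 2 and lowest in PKM2ΔMAC replicate 3, the groups overlapped, and neither was called (adjusted p of 0.978 and 0.872 from edgeR). These actins are typical of contractile cells of vessels and gut and of activated fibroblasts. In PKM2ΔMAC replicates 1, 2 and 3, fibroblast markers summed to 6229, 4910 and 6212 CPM and smooth muscle markers, Acta2 among them, to 897, 1307 and 730 CPM; their part was not tested. Values of Actb, Actg1, Tpm4, Myh9 and other genes of the report come from the whole culture.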
